A study of Mus musculus with 2 samples.

Results

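Unannotated splice junctions of adult mouse testis were described from the authors' combined junction record of 2 RNA-seq libraries. A splice junction is the pair of genome positions that the spliceosome joins when it removes an intron, from the donor (5′) site to the acceptor (3′) site. The junctions were selected on measured values. They are the records whose record name carries the tag A=0, whose reproducibility value (column 8 of the record) is at most 0.1, and whose span, the number of bases between the exons, is under 100000. They numbered 60263 of 649521 records in all, and of 469840 records tagged A=0. Tag A was read as marking annotated (A=1) and unannotated (A=0) junctions, and the sources used here do not name the annotation. The libraries are of poly(A)-selected RNA longer than 200 nucleotides, depleted of ribosomal RNA, with spike-in RNA added. They were sequenced as stranded pairs of 76 nucleotides from C57BL/6J male littermates aged 8 weeks, and the labels give no treatment. Both carry 1 donor identifier, so separate animals are not established, and the record holds counts named R1 and R2 in place of a file for each library.

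The testis is known for a large number of transcripts and splice forms that other tissues lack, many of them made in meiotic and haploid germ cells. An unannotated junction can join known exons in another combination, such as when an exon is skipped. It can also move a donor or an acceptor by a few bases, or belong to a transcript that an annotation does not hold. The same record can hold false junctions, which arise when a read is split at the wrong place or when similar copies of a sequence share reads. Closely spaced acceptors that lie 3 bases apart are a common kind of alternative splicing in mammals and keep the reading frame.

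Junction reads summed to 21978582 in R1 and 23043393 in R2. Unannotated junctions carried 1555542 of the R1 reads, or 7.08% (95% Wilson interval 7.07 to 7.09), and 1638560 of the R2 reads, or 7.11% (7.10 to 7.12). These intervals cover counting error only, since reads without molecular identifiers are not independent molecules. In the gene tables, germ cell markers had a TPM (transcripts per 1000000) of at least 1 in both libraries for 10 of 10 genes. The same held for 5 of 5 Sertoli, 4 of 4 Leydig, 2 of 2 peritubular and 2 of 2 macrophage genes. None of 5 epididymis genes did so, but their summed TPM was 744 in replicate 1 and 0.45 in replicate 2. No test was made over junctions, since junctions of 1 data set are not replicates, and the record gives 1 combined value with no SD.

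Among records tagged A=0, the limit of column 8 kept the same records as a minimum of 5 in column 9. Among those tagged A=1, 8 records with a column 9 of 1217 or 1803 missed the limit, at 0.333 or 0.25. Each of the 2759 values of column 9, a whole number that the file does not name, went with a single value of column 8. A column 9 of 4 went with 0.102, of 5 with 0.057 and of 6 with 0.032, so every unannotated junction kept had a column 9 of at least 5. Of 414286 records tagged A=0 under the span limit 14.5% were reproducible in this sense, and of 178956 tagged A=1 79.9%. The 8859 junctions just inside, at a column 9 of 5, had a median of 6 reads (5 to 28). The 13368 just outside, at 4, had a median of 5 (4 to 47). The record with most reads just inside had 28 reads, at 59063656 to 59063910 on chromosome 1. The one just outside had 47, at 39983630 to 39985372 on chromosome 17. At the span limit, 2471 reproducible records of 100000 bases or more were left out. These values chose the junctions and are given as a description.

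Unannotated junctions had fewer reads than annotated ones. Their median was 14 reads (quartiles 9 and 33), against 63 (22 and 203) for the 142937 annotated junctions under the same limits. By library the median was 7 in R1 and 8 in R2 for unannotated junctions, against 29 and 33 for annotated ones. At least 100 reads were found at 5336 unannotated junctions (8.85%) and at 56284 annotated ones (39.4%). At least 1000 were found at 328 (0.544%) and at 8083 (5.65%). Reads were concentrated, and the 603 highest unannotated junctions held 31.8% of their 3194102 reads.

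**Figure D1:**
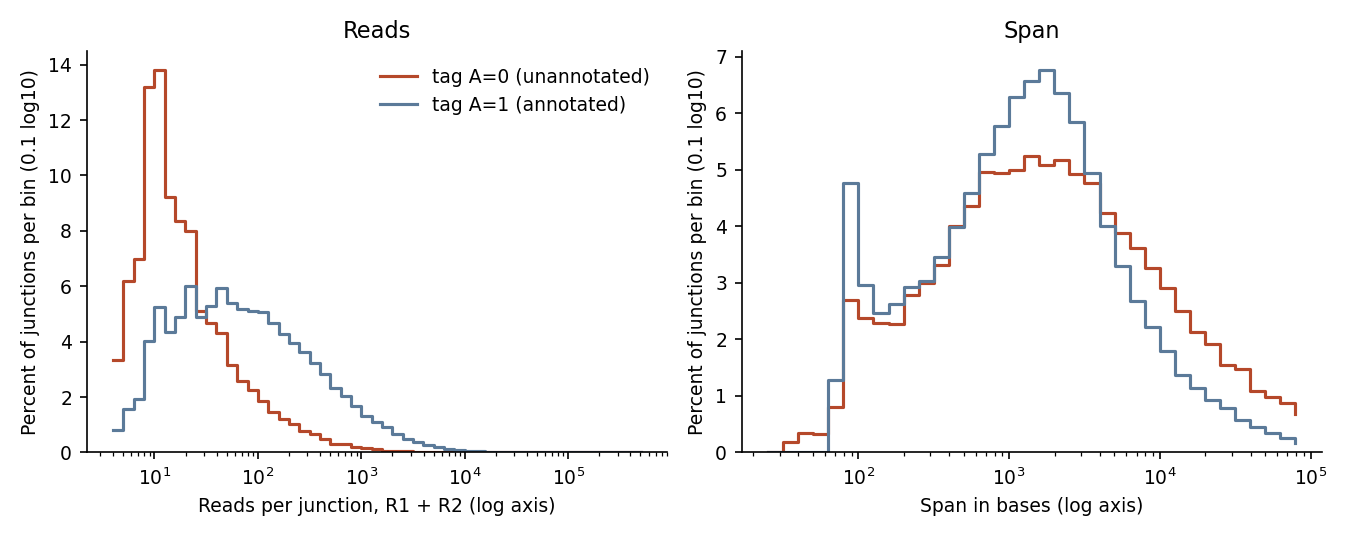
Percent of junctions by reads per junction (left, log axis, R1 + R2) and by span in bases (right, log axis), for unannotated and annotated reproducible junctions under 100000 bases. Unannotated junctions crowd at low reads, with a median of 14 against 63, and extend further at long spans, with a median of 1667 bases against 1283.

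Spans under 70 bases and of 10000 bases or more were more frequent among unannotated junctions. The median span was 1667 bases (quartiles 519 and 5576) for unannotated and 1283 (435 and 3157) for annotated junctions. Spans of at least 10000 bases made up 16.1% of unannotated and 7.80% of annotated junctions. Spans under 70 bases, shorter than most mammalian introns, numbered 622 unannotated (1.03%) and 116 annotated (0.0812%). Under 50 bases there were 301 and 1, while under 100 bases the shares were 4.26% and 5.91%. Of the 622 short ones, 494 carried the tag C=0, whose meaning the file does not give. Tag C=0 stood on 9.61% of unannotated junctions, 0.302% of annotated ones and 37.4% of unannotated records that missed the threshold. Those with C=0 had a median span of 739 bases, against 1792 for those with C=1, at nearly the same median reads, 14 and 15. The shortest span was 31 bases, and among those with it the most reads were found at 143206348 to 143206378 on chromosome 5, with 17 in R1 and 22 in R2. The longest, at 13703071 to 13802978 on the same chromosome, spanned 99908 bases with 2 and 10.

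The junction with most reads lay on chromosome 16 at 17121645 to 17121756, with 13621 reads in R1 and 15816 in R2 over a span of 112 bases. Next came 38149461 to 38155888 on chromosome 15, with 10226 and 11633 reads and tag C=0. The junction at 143926772 to 143927108 on chromosome 5 had 8404 and 6984. None of the 3 shared a donor or an acceptor with an annotated junction, and all 3 lay outside every annotated span on either strand. Of junctions with a single known site, the one with most reads at a known donor lay at 97792556 to 97800155 on chromosome 13. It had 6154 reads in R1 and 9207 in R2. These were 61.9% and 59.35% of its reads plus those of annotated junctions at that donor. The one with most reads at a known acceptor, at 87797513 to 87811715 on chromosome 11, had 3524 and 4381 reads. Counted in that way, they were 67.4% and 71.4% at the acceptor, with other unannotated junctions left out. In all, 11 unannotated junctions with 8294 reads used this acceptor. All coordinates are 1-based on the mm9 assembly, from the first to the last intron base. No mm9 annotation or genome was used, so no gene name, exon or splice site sequence is given.

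Unannotated junctions were sorted by which of their sites an annotated junction on the same strand also used. Both sites were known for 3685 (6.11%), the donor alone for 9413 (15.6%), the acceptor alone for 13217 (21.9%) and neither for 33948 (56.3%). Among the 354023 unannotated records that missed the threshold, the corresponding shares were 3.535%, 12.5%, 13.7% and 70.3%. Acceptors were shared more often than donors, in 28.0% against 21.7% of junctions. Median reads hardly differed between the classes, from 14 to 15, after a limit that set a minimum in column 9. In the same order, the classes held 7.76%, 12.5%, 20.9% and 58.8% of the reads of unannotated junctions. Spans differed, with a median of 5967 bases where both sites were known and 1413 where neither was. Tag C=0 stood on 0.217% of the first class and on 15.2% of the last.

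**Figure D2:**
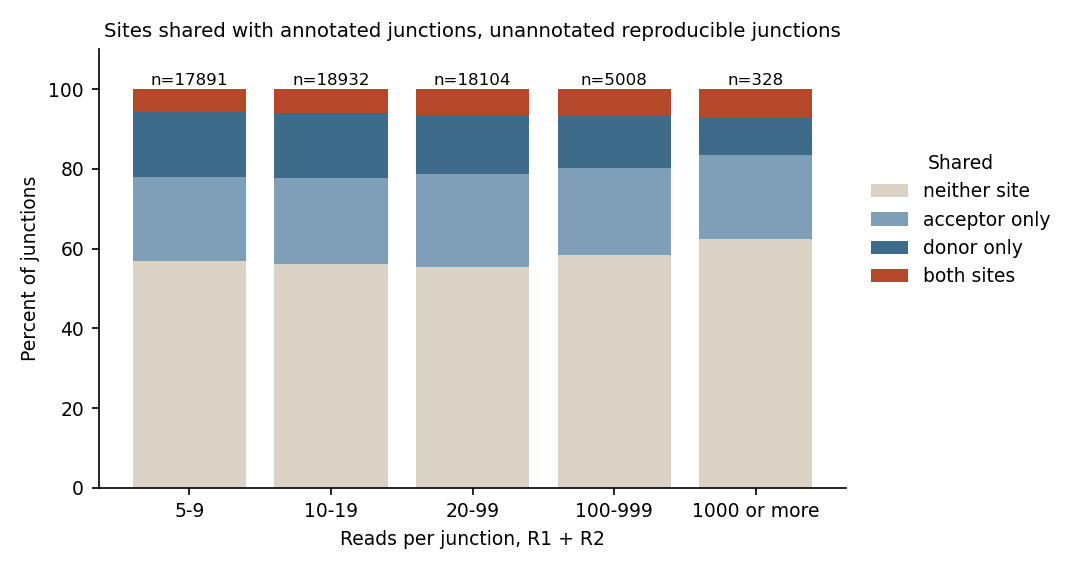
Percent of unannotated junctions that share both sites, the donor, the acceptor or neither site with an annotated junction, by reads per junction (R1 + R2), with the number of junctions above each bar. The share with neither site lies between 55.4% and 62.5% in every bin.

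At the 26315 junctions with a known site, the unannotated junction took a median of 7.89% of its reads plus those of annotated junctions there. Where both sites were known, its share is the mean of the share at the donor and the share at the acceptor. Reads of other unannotated junctions at the site were left out, and 48.3% of all unannotated junctions shared a site with another. The median moved with the limit of column 8, to 13.5% at a limit of 0.01 and 1.66% with none. At the limit used, the median was 11.8% where both sites were known, 9.22% where the acceptor alone was and 5.61% where the donor alone was. The unannotated junction held over 50% by this count in 3698 cases (14.1%). Among those with at least 100 reads, the most one-sided was at 103647952 to 103648098 on chromosome 6, with 1325 reads in R1 and 2237 in R2, where the annotated junction at the same acceptor had 0 and 1. Its share was 100% in R1 (95% Wilson interval 99.7 to 100) and 99.96% in R2 (99.75 to 99.99). These shares measure junction reads and not transcripts, and a limit on reproducibility favours junctions with more reads.

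Where the donor was known and the acceptor was not, the distance to the annotated acceptor peaked at 3 bases. The offset is the span of the unannotated junction minus that of the nearest annotated one at the same donor, so a positive value gives a longer intron. An offset of 3 bases was the most frequent, at 501 of 9413 junctions, followed by 4 bases (308), 5 bases (228), -3 bases (188) and 6 bases (113). Acceptors 3 to 6 bases downstream made up 12.2%, while offsets of 1 and 2 bases were rarer. Within 100 bases, 41.3% of 3980 offsets were multiples of 3, and the other remainders took 29.7% and 29.05%. Offsets of 3 and -3 supplied 689 of these multiples, and without them the share was 29.0% of 3291. From 6 to 100 bases it was 36.95% of 2579. Beyond 100 bases the share was 34.7%.

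The acceptors 3 bases downstream took a median of 8.82% of reads beside their annotated partners, and 49 of them took over 50%. Those 4 and 5 bases downstream took 3.05% and 2.92%. The acceptors 3 bases upstream took more, a median of 15.5%, and 32 of 188 took over 50%. At 102319246 to 102320185 on chromosome 15, the junction with the acceptor 3 bases on had 546 reads in R1 and 703 in R2, while its annotated partner had 1458 and 1733. Its share was 27.2% (95% Wilson interval 25.3 to 29.2) in R1 and 28.9% (27.1 to 30.7) in R2. At 80513829 to 80513967 on chromosome 10 the unannotated acceptor was the main one, with 449 and 404 reads against 92 and 76 for the annotated one, or 83.5% over both. Another, at 120206194 to 120207552 on chromosome 4, had 425 and 369 reads against 1980 and 1986, or 17.7% in R1 and 15.7% in R2.

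Unannotated donors did not show this peak. Of 13217 donors paired with a known acceptor, the most frequent offsets were -4 bases (120) and 4 bases (94), then -5 (47) and 5 (42). Within 20 bases lay 7.79% of donors, against 23.6% of acceptors, and 46.2% of donors lay over 1000 bases away, against 38.7% of acceptors. Multiples of 3 made up 30.4% of 2486 donor offsets within 100 bases. The 4-base donors took little of the reads, with a median of 2.46% for the shorter intron and 2.79% for the longer. The one with most reads, at 119497600 to 119502674 on chromosome 8, was an exception, with 260 reads in R1 and 213 in R2 against 402 and 315 for its annotated partner. At 79223652 to 79223737 on chromosome 10, 184 and 231 reads stood against 8709 and 8348.

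**Figure D3:**
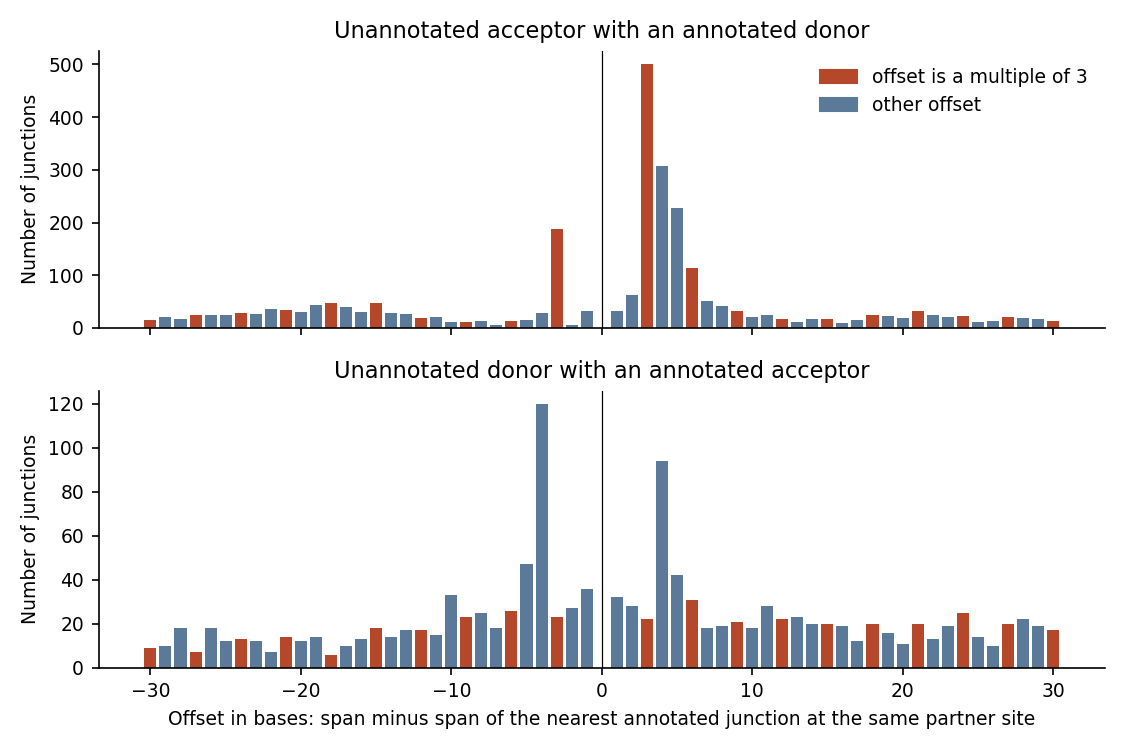
Number of unannotated junctions by offset in bases from the nearest annotated junction at the same partner site, for acceptors (top) and donors (bottom), with multiples of 3 in a second colour. Acceptors peak at 3 bases (501 junctions) with a smaller peak at -3 (188), and donors at -4 (120) and 4 (94).

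Of the 3685 junctions that joined a known donor to a known acceptor in a new pair, 2499 (67.8%) skipped what was read as 1 exon. Such an exon is a stretch between 2 annotated junctions that holds no annotated junction. No exon annotation was used, and 2332 of these exons had at most 500 bases. All 2499 had a median length of 120 bases (quartiles 82 and 170), and 981 (39.3%) had a length that is a multiple of 3. Skipping an exon of such a length keeps the reading frame. Among those of at most 500 bases the share was 39.75%. It was 44.4% among the 187 of them with at least 100 skipping reads. The share among all annotated exons was not measured, so these shares cannot be read as an excess. The skip percentage, the skipping reads over their sum with the mean of the 2 flanking annotated junctions, had a median of 5.65% in R1 and 5.68% in R2. With the reads of R1 and R2 summed, its median was 6.265% and it was over 50% for 226 exons. In 179 of these it was over 50% in each library.

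Among skipped exons of at most 500 bases, the one with most skipping reads lay within the junction at 13262639 to 13266340 on chromosome 17 and had 99 bases. The skip had 1687 reads in R1 and 2231 in R2, with skip percentages of 50.5% and 50.7%. The 2 flanking junctions were uneven, with 2583 and 718 reads in R1. At 146399252 to 146400573 on chromosome 7, over an exon of 157 bases, 1107 and 707 reads gave 77.0% and 65.3%, a wider gap between libraries. An exon of 99 bases within 7537632 to 7541245 on chromosome 17 was skipped by 669 and 861 reads, or 32.3% and 33.0%. At some exons nearly all reads were of the skip. The exon of 86 bases within 91998924 to 92000742 on chromosome 13 was skipped by 311 reads in R1 and 364 in R2, against 0 and 4 reads upstream and 0 and 1 downstream. Over the 187 skips the 2 libraries differed by a median of 1.92 percentage points and by up to 24.7.

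**Figure D4:**
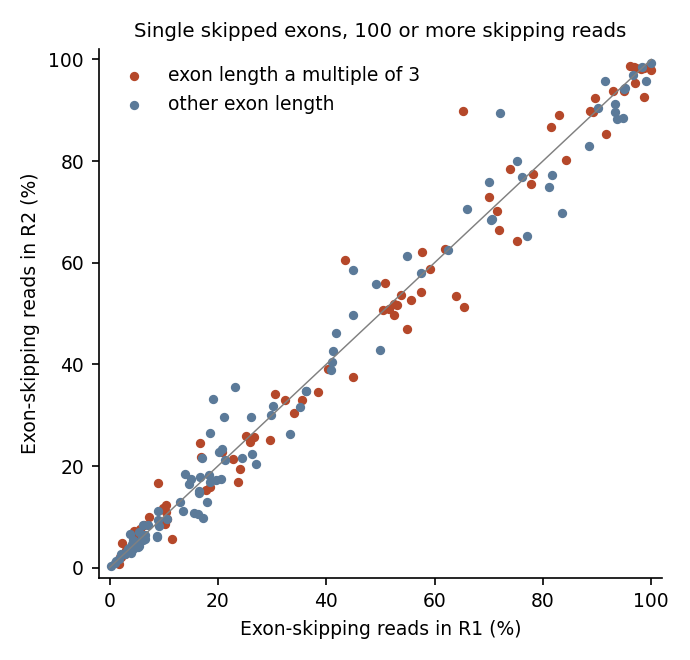
Skip percentage in R2 against R1 for 187 single skipped exons of at most 500 bases with at least 100 skipping reads, coloured by whether the exon length is a multiple of 3 (83 exons). Points follow the line of equality, with a median distance of 1.92 percentage points.

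Junctions with neither site known mostly lay outside the spans of annotated junctions in the record, which leaves out annotated exons and introns without a read. Of 33948, 24334 (71.7%) overlapped no annotated span on either strand, 5433 (16.0%) overlapped one on the opposite strand only and 4181 (12.3%) one on the same strand. Tag C=0 stood on 11.2%, 5.80% and 51.1% of these. In the first group 64.0% touched a contig, a transcribed block called by the authors, that held other unannotated junctions but no annotated site. Another 16.8% of this group touched no contig with a site of either kind. Sites of unannotated records that missed the threshold were not counted. Of the 3 opposite-strand junctions with most reads, 2 lay close together on chromosome 3, at 95033128 to 95036055 (3615 and 3751 reads) and at 95032182 to 95032973 (1441 and 1495). Among all unannotated junctions 94.9% had a contig at both ends, against 98.9% of annotated junctions and 75.8% of unannotated records that missed the threshold. Contigs come from the same libraries, so this is a further readout of the same RNA.

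Intron lengths gave a comparison with another annotation that needed no coordinates. Among 5145 unannotated junctions of at least 20000 bases, 634 (12.3%) had exactly the length of an intron on the same chromosome and strand in GENCODE M21, on a different assembly. With the length moved by 1 to 3 bases the share was 0.952% to 1.42%. It was 98.9% for 4962 annotated junctions and 2.36% for unannotated records that missed the threshold. By class, 7.99% matched where both sites were known, 7.89% with the donor alone, 11.2% with the acceptor alone and 15.8% with neither. Junctions with at least 100 reads matched in 21.1% of cases, and those with tag C=0 in 8.78%. A matching length does not identify an intron.

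Some of the most read junctions repeated the counts of their neighbours. On chromosome 17, the junction at 15107558 to 15146891 had 6801 reads in R1 and 7076 in R2, and the annotated junction at the same donor had 6801 and 7078. It was longer than that annotated junction by 31593 bases. The junctions at 15107558 to 15178259 and at 15139151 to 15178259 had 5274 and 5271 reads in R1, and 5589 and 5588 in R2. Among the 10 junctions with most reads, these 3 had both counts within 1% of another record at a shared site. Over all junctions with at least 100 reads, 120 of 5336 did so. Those near-equal to an annotated junction had a median span of 45934 bases, against 2036 for all 2210 with a known site. Whether reads were counted at more than 1 place was not tested. Equal counts give a share near 50%. At 90401723 to 90428938 on the X chromosome, the mean of the donor and acceptor shares was 49.97% in R1 and 49.99% in R2.

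The libraries were set side by side at 23440 unannotated junctions with at least 20 reads, after scaling to the totals of annotated junctions. R2 and R1 were over 2-fold apart at 3770 (16.1%), where all reproducible junctions gave 10.1%. R2 was higher at 2011 (8.58%, against 5.9% of all) and lower at 1759 (7.504%, against 4.2%). Depth differed between the sets. At least 100 reads were found at 5336 of the 23440 unannotated junctions, and at 56284 of 110287 annotated ones with at least 20. Among those with at least 100, the share over 2-fold apart was 3.64% for unannotated junctions and 1.96% for annotated ones. The part of counting error in the difference was not tested. Of all 60263 unannotated junctions, 738 had reads in R1 alone and 1006 in R2 alone, with a median of 8 reads in each case. The extremes of the ratio were found in 1 library almost alone. At 15042312 to 15042353 on chromosome 8, a span of 42 bases, R2 had 287 reads and R1 had 1. At 140659343 to 140659868 on chromosome 4, R2 had 691 and R1 had 0. In the other direction R2 had 0 and R1 had 321 at 96058613 to 96059522 on chromosome 8. Marker genes also differed between the libraries. In replicates 1 and 2, TPM was 454 and 0.2 for Crisp1, 193.6 and 0.25 for Spink8 and 96.0 and 0 for Defb28, while Lcn5 and Lcn8 were at or under 0.11 in both. The peritubular genes Acta2 (179.9 and 91.3) and Myh11 (18.5 and 6.92) were also higher in replicate 1. The part of these cells in the junction differences was not tested. Column 8 was read as a rate computed from replicates, so agreement of R1 and R2 is no finding. The limit did not require reads in both libraries, since 738 unannotated junctions had none in R2 and 1006 had none in R1.

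The X chromosome held fewer unannotated junctions for its annotated ones than any autosome. It had 836 unannotated and 3854 annotated junctions, a ratio of 0.217, while the 19 autosomes ranged from 0.337 on chromosome 2 to 0.565 on chromosome 14. Reads were also low on X for annotated junctions, with a median of 27 against 47 to 82 on autosomes, and less so for unannotated ones, with 12.5 against 13 to 16. Fewer X records tagged A=0 were reproducible, 11.3% against 12.97% to 16.3% on autosomes. In the male germ line the X chromosome is silenced during meiosis, which is background and was not tested here. Neither site was known for 68.9% of X junctions, against 48.4% to 67.3% on autosomes. Of the reads of all junction records on X, unannotated junctions carried 7.75% in R1 and 7.93% in R2, inside the autosomal ranges of 3.97% to 13.2% and 3.98% to 12.9%. On the Y chromosome 46 unannotated and 109 annotated junctions gave a ratio of 0.422, and the unannotated ones carried 41.1% of 5747 R1 reads and 39.3% of 6662 R2 reads over all Y records. The most read, at 2780572 to 2781829, had 664 and 822.

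**Figure D5:**
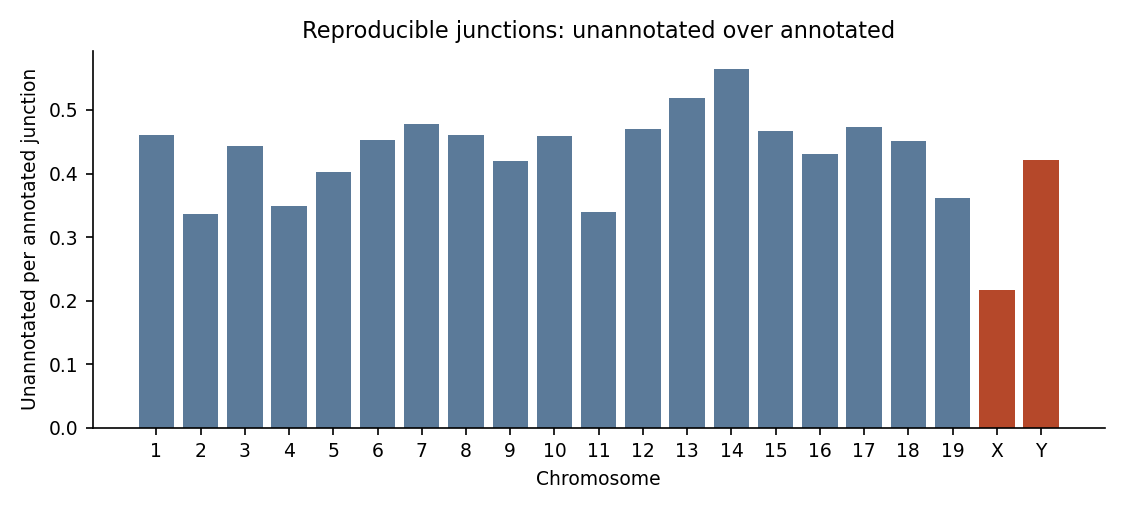
Number of unannotated over annotated reproducible junctions under 100000 bases, by chromosome, with X and Y in a second colour. X is lowest at 0.217, below the autosomal range of 0.337 to 0.565.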

How the data were processed

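Values come from 2 testis libraries of 1 group, so no comparison between conditions and no test was made. Per the labels' protocols the RNA was poly(A)-selected and longer than 200 nucleotides. The authors deposited splice junctions on mm9 with both libraries combined. Each deposited record holds a read count, equal to R1 plus R2 in all 649521 records, and a deposited fraction (column 8), read as an irreproducible discovery rate from the file type in the readme. A further deposited score (column 9) is a whole number that the file does not name. The sources used here name no junction caller and no annotation. Contigs carry a deposited signal, whose value was not used beyond position. Deposited TPM of genes, per the file headers on mm10, served only to check markers. The deposited transcript tables were not analysed here, and 0 columns were left out for want of a label.

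Junctions were parsed with Python 3.11.15, pandas 2.3.3 and numpy 2.4.6, with intervals from scipy 1.17.1 and plots from matplotlib 3.10.9. Sites were matched exactly, by strand. R2 over R1 used a floor of 3 counts where a library had none. The steps for site classes, offsets, skipped exons, contig ends and use recovered 100% of 400 simulated loci. Those loci stood apart, without copies or competing unannotated junctions, and the other steps were not checked in this way. Junctions were named by a rule: those with most reads in all, in each site class and on X and Y, the extremes of span and of R2 over R1, those at the limits, and the alternative sites and skipped exons with the highest use. Other junctions named, among them the 4-base donors, the 3-base acceptors, the skips with most reads and those with near-equal counts, were chosen after their values were seen. The junction set and the lists were chosen with earlier results of these data known. No mm9 genome was used, and no coordinate was converted.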

Additional observations from a re-analysis of the deposited data

How the results depend on the processing

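Of 100 alternatives over 20 results, 48 stayed within the set limits and 52 moved beyond them. For counts the limit was a ratio of 1.5, and for shares and medians it was the 95% interval of the main value. Those intervals treat junctions or reads as independent units, so they are narrow and do not measure spread between animals. Some moves, such as a higher median of reads under a minimum of reads, followed from the setting. These results are single counts, medians and shares, for which no direction was defined. The differences in span from annotated junctions and in the X ratio from autosomes were not recomputed under the alternatives. Most results have no replicate error, so small shifts count as moves.

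Requiring column 8 of at most 0.01 left 33019 junctions, with a median of 29 reads and 1626 bases, and 6.533% of reads. Shared donors were then 21.15%, acceptors 29.05%, both sites 6.351%, contigs at both ends 95.35%, X 1.202% and median use 13.51%. With any column 8 there were 414286, with medians of 2 reads and 1547 bases, and 8.525% of reads. Donors were 16.86%, acceptors 18.8%, both 3.91%, neither 68.25%, contigs 78.56%, X 1.786% and use 1.657%. At least 10 reads gave a median of 22 reads, acceptors 28.58%, contigs 95.15%, 6.808% of reads and use 11.03%.

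Spans under 50000 bases gave a median of 1569, donors 21.3%, acceptors 27.66%, both 5.651%, contigs 95.5%, 6.89% of reads and use 7.574%. With no span limit these were 1826, donors 22.3%, both 6.555%, contigs 92.86%, X 1.6%, 7.495% of reads and use 8.571%. Counting as known only sites of reproducible annotated junctions gave donors 20.7%, acceptors 26.22%, both 5.526%, neither 58.6% and use 6.87%. Contigs on either strand gave 96.22%. Counting the reads of 1 library at a time gave a median of 7 to 8 reads and 7.078% to 7.111% of reads. Column 8, from both libraries combined, still chose the junctions. Of these, 59525 had a read in R2 and 59257 in R1, so the choice of junctions was not tested in this way. The annotated site with most reads, an alternative chosen after seeing the data for single offsets, put 7.203% of donors within 20 bases. Of junctions with at least 100 reads 3.636% were over 2-fold apart.

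No paired analysis was possible because the labels give 1 group. Depth limits single junctions, since a median of 14 reads leaves wide counting error in any share.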

Other observations

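Some sites, chosen after their values were seen, served many unannotated junctions. The donor at 27238088 on the minus strand of chromosome 17 was joined to 15 unannotated acceptors with 7 to 568 reads, 854 in R1 and 912 in R2 over all. The donor at 40890351 on chromosome 6 had 12, all tagged C=0, with 905 and 1161 reads. Among acceptors, 84811545 and 169167780 on chromosome 1 were each used by 12.

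Unannotated junctions outnumbered annotated ones in 44 of the 352 windows of 1000000 bases that held at least 50 of them. From 50000001 to 51000000 on chromosome 13 there were 92 unannotated and 17 annotated junctions, with neither site known for 94.6%. From 7000001 to 8000000 on chromosome 14 there were 97 and 22. The window with most, from 52000001 to 53000000 on chromosome 7, held 320 and 573.

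The mitochondrial genome held 4 unannotated junctions, with 13 to 63 reads and spans of 61 to 111 bases, all tagged C=0, and no annotated one. Those at 6451 to 6517, 6458 to 6518 and 6454 to 6514 overlapped one another. Whether any of them arose by splicing was not tested.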
